A study of Rattus norvegicus with 12 samples.

Results

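The transcriptome of rat midbrain astrocytes exposed to 10 µM PT109B for 6 h was compared with that of control cells, over all 9721 genes of the deposited table. PT109B is a small-molecule compound, given here by its code name alone. The 3 libraries at 6 h (PT6H-1, PT6H-2 and PT6H-3) and the 3 control libraries (0 h) are 6 of the 12 libraries of the series, and the other libraries, of shorter exposures, entered the fit to share the estimate of spread. All groups were primary astrocytes of wild-type newborn SD rats, from the midbrain, kept in medium with 10% fetal bovine serum. Separate cultures for the libraries of a group are not stated in the labels, so the spread behind the p-values may be technical. The labels also do not say whether control cells received the solvent.

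Astrocytes are the main support cells of the brain, and in culture with serum they keep dividing and keep transcripts of their progenitors. Cells that receive a stimulus first transcribe immediate early genes, most of which encode transcription factors such as Fos, Egr1 and Myc, and ERK kinases carry many such stimuli and induce their own feedback inhibitors. Bone morphogenetic proteins (BMPs) act through Smad factors to keep Id proteins high, and Id proteins block the proneural factors that start neuronal genes.

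PT6H-1 stood apart from the other libraries at 6 h. The correlation of log2 CPM (counts relative to library size, scaled by TMM) was 0.9846 between PT6H-2 and PT6H-3, and 0.9359 and 0.9365 between PT6H-1 and each of them. PT6H-1 was nearer to the controls (0.9382 to 0.9417) than PT6H-2 and PT6H-3 were (0.8873 to 0.8929), and the controls correlated with each other at 0.9824 to 0.99. Total counts were 11160963, 10815242 and 9535513 at 6 h, against 10432924, 12498047 and 10364591 in controls. For each gene PT6H-1 was therefore set beside the other pair. It is said to lie on the same side where all 3 libraries at 6 h were above the highest or below the lowest control, and to agree in size where its log2 difference from the control mean had the sign and at least 50% of the size of the mean difference of PT6H-2 and PT6H-3.

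At 6 h, 2891 of 9491 tested genes (30.5%) were called changed relative to control (Benjamini-Hochberg adjusted p below 0.05, quasi-likelihood test of edgeR). Of these, 1771 (18.7%) were higher and 1120 (11.8%) were lower, and 714 and 385 of them changed at least 2-fold. Counts of called members in the gene lists below, where no other setting is named, are to be read against these shares of 18.7% and 11.8%. Counts with library-size scaling are to be read against 1141 genes higher and 1799 lower of the 9491. Those without PT6H-1 are to be read against 22.9% higher and 17.8% lower, and those of DESeq2 against 2074 genes higher and 1496 lower. No such share was computed for unadjusted p-values. PT6H-1 lay on the same side as PT6H-2 and PT6H-3 in 98.9% of the genes called higher and in 99.6% of those called lower. It agreed in size in 77.4% and 81.3%, and its median difference was 70.8% and 79.9% of theirs. These shares describe genes chosen by a test in which all 3 libraries took part. Over all tested genes, PT6H-2 and PT6H-3 were both outside the control range on 1 side in 7757, and PT6H-1 was on that side in 5288 (68.2% of these and 55.7% of tested genes, 28.2% above and 27.5% below the controls), inside the range in 1489 and on the opposite side in 980.

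The split of the calls depends on the scaling. With library sizes in place of TMM factors 1141 genes were higher and 1799 lower, and with the depth implied by the ratio of count to FPKM 1235 were higher and 1712 lower. The median log2 change of all tested genes was -0.02 with TMM, -0.24 with library sizes and -0.24 with that depth, so small changes below are relative to a median that moves by this much. Without PT6H-1, 3872 genes (40.8%) were called, 2178 (22.9%) higher and 1694 (17.8%) lower, and 1210 of these were not called with it. In those 1210 genes PT6H-1 lay on the same side in 50.8% and had a median of 14.6% of the difference of the pair. Leaving out another of the 6 libraries gave 1755, 1848 and 1869 calls without control replicates 1, 2 and 3, 1751 without PT6H-2 and 1705 without PT6H-3.

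**Figure D1:**
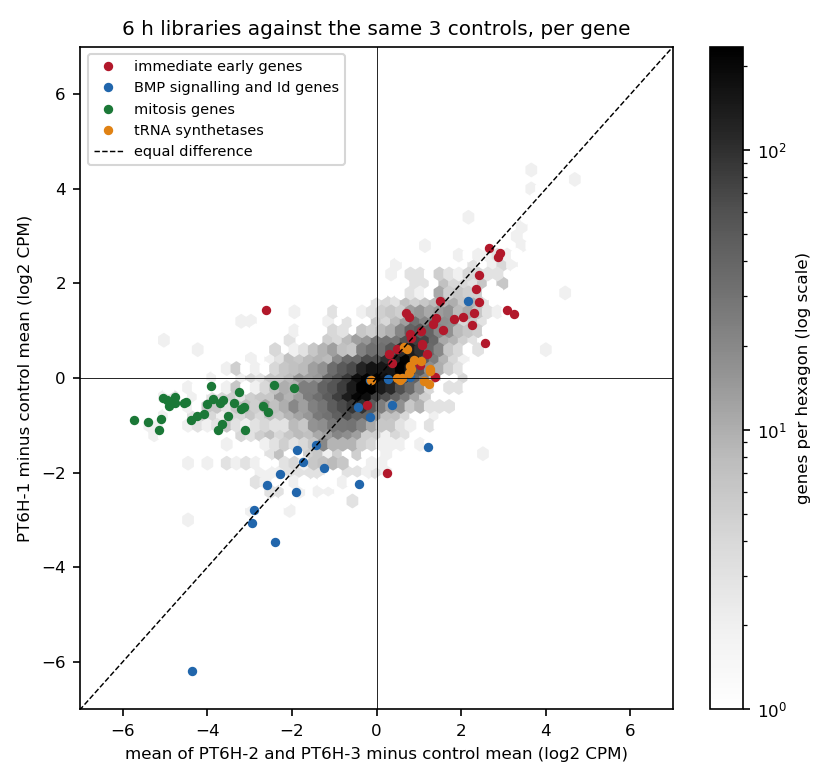
Log2 CPM difference from the control mean in PT6H-1 (vertical axis) against the mean of PT6H-2 and PT6H-3 (horizontal axis), for tested genes as grey hexagons shaded by their number, with 4 gene lists in colour and a dashed line of equal difference. Immediate early and BMP genes lie near the line, while mitosis genes and tRNA synthetases lie near 0 in PT6H-1.

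Among the genes with the largest rises were ion channels, ligands and enzymes of retinoid and vitamin D metabolism. Kcnk3 (ENSRNOG00000009790), a potassium leak channel, had 52.4, 63.8 and 67.3 CPM at 6 h, against 2.91, 1.93 and 0.88 CPM in controls, a log2 change of 4.99 ± 0.39 (SE; adjusted p of 3.29e-05 in edgeR). Oasl, an interferon-induced protein, had 255, 264 and 272 CPM at 6 h and 14.2, 14.4 and 17.8 CPM in controls (4.09 ± 0.79). For both genes the groups were far apart and PT6H-1 reached 93.8% and 98.2% of the difference of the pair. Aldh1a3, which makes retinoic acid, had 176, 74.0 and 87.2 CPM at 6 h, against 4.54, 5.28 and 3.96 CPM in controls (4.61 ± 0.69), so that PT6H-1 was the highest library. Cyp24a1, which breaks down vitamin D, was likewise highest in PT6H-1, with 9.33, 2.46 and 3.31 CPM at 6 h and 0.0856, 0.214 and 0.352 CPM in controls (4.48 ± 0.83). Mmp13, a collagenase, went the other way among the libraries at 6 h, with 11.6 CPM in PT6H-1 and 64.7 and 68.7 CPM in the pair, against 2.74, 1.00 and 4.49 CPM in controls (4.15 ± 0.96).

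The 15 largest rises also included Galr1, Eomes, Fam83g, Dusp9, Kcnf1, Jag2, Bcl6b, Arl5c and Fgf18. Galr1, a receptor of the neuropeptide galanin, had 4.19, 8.93 and 11.1 CPM at 6 h, against 0.342, 0 and 0 CPM in controls, and Fgf18, a fibroblast growth factor, had 4.88, 6.67 and 7.20 CPM at 6 h against 0.428, 0 and 0.704 CPM. With so few counts in controls the size of these folds depends on the fit, and the same holds for Eomes and Dusp9. Jag2, a Notch ligand, had 6.59, 14.4 and 19.7 CPM at 6 h and 0.942, 0.428 and 0.440 CPM in controls (4.47 ± 0.54). The choice of the 15 genes required all libraries at 6 h to lie above the controls. The calls of Bcl6b and Arl5c were lost without any 1 of the controls, without PT6H-1 and without PT6H-3 (adjusted p of 0.05 to 0.0947 and 0.0675 to 0.106 in edgeR).

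The 15 largest falls included genes of lipid and glucose use and a BMP target. Pdk4, a kinase that shuts off pyruvate dehydrogenase, had 0.942, 1.44 and 1.03 CPM at 6 h, against 20.4, 17.6 and 21.1 CPM in controls (log2 change -4.10 ± 0.26, adjusted p of 1.34e-05 in edgeR). Angptl4, a secreted inhibitor of lipoprotein lipase, had 37.8, 10.2 and 11.4 CPM at 6 h and 293, 298 and 327 CPM in controls (-3.94 ± 0.49). Atoh8, a basic helix-loop-helix factor known as a BMP target, had 0.942, 2.77 and 4.34 CPM at 6 h, against 79.2, 73.3 and 65.5 CPM in controls (-4.78 ± 0.53). PT6H-1 was the lowest library for Atoh8 and the highest of the libraries at 6 h for Angptl4. Lmod1, a leiomodin of smooth muscle, had 0.942, 0.821 and 0.800 CPM at 6 h and 20.9, 22.6 and 10.0 CPM in controls (-4.36 ± 0.59), and Slc24a2, a sodium-calcium exchanger, had 0.342, 1.13 and 0.343 CPM at 6 h and 5.31, 5.50 and 4.66 CPM in controls (-3.07 ± 0.58). Ppfia2, Ranbp3l, Cfap20dc, Dok7, Pcdh20, Bdkrb1, Trpm6, Lrrtm4, Muc15 and Lrrc55 made up the rest, at 2.48 CPM or less in each library at 6 h. The choice of these 15 genes required all libraries at 6 h to lie below the controls. The call of Cfap20dc was lost without PT6H-2 or PT6H-3 (adjusted p of 0.0612 to 0.0747 in edgeR), that of Lrrtm4 without control replicate 3, PT6H-2 or PT6H-3 (0.0548 to 0.0836), and that of Lrrc55 without PT6H-2 (0.0573).

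**Figure D2:**
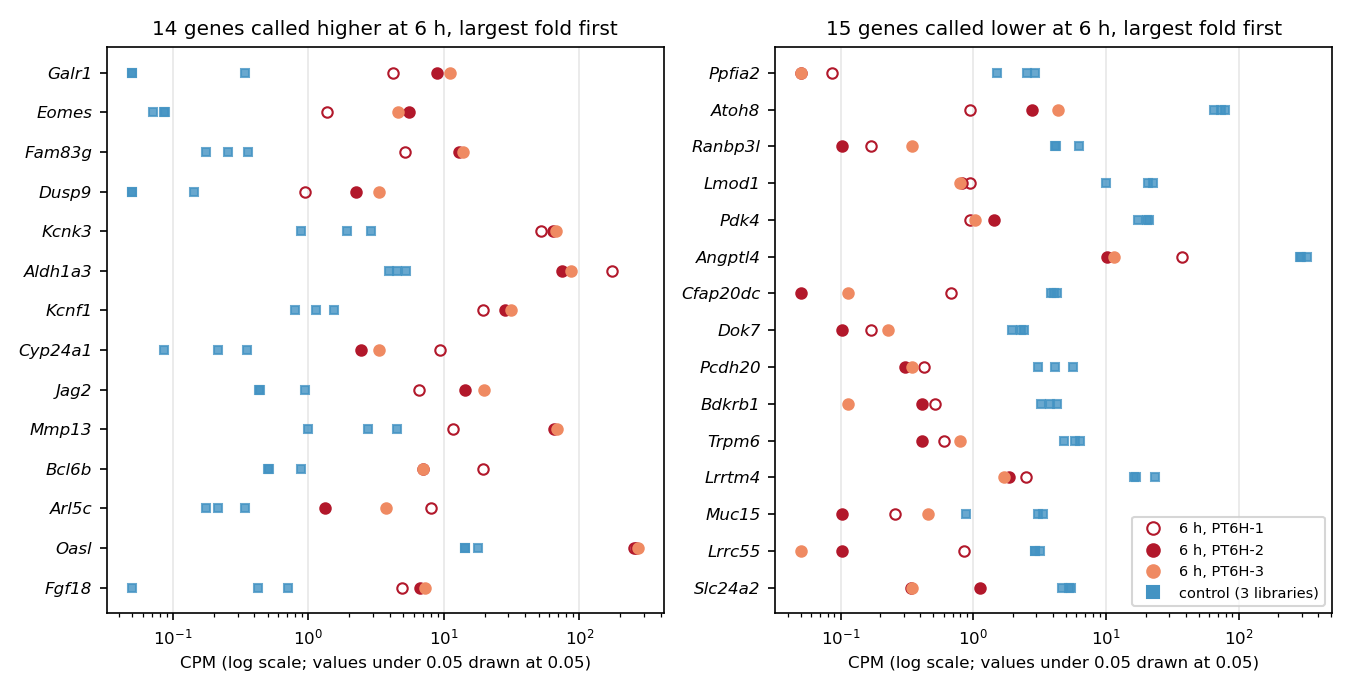
CPM on a log axis of 14 of the 15 genes with the largest rises (left panel) and the 15 with the largest falls (right panel) in each library at 6 h (circles, PT6H-1 open) and in each of the 3 controls (squares). The choice of genes required the circles to lie on 1 side of the squares. For Mmp13 and Angptl4 the open circle lies nearer to the controls than the filled ones.

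Most immediate early genes were still above control at 6 h. Of 33 tested members 24 were called higher and 0 lower, with a median log2 change of 1.27, and the median was 1.39 and 23 were called without PT6H-1. PT6H-1 was on the same side as the pair in 30 of 33 members and agreed in size in 19 of the 24 called. Egr1 (ENSRNOG00000019422), a zinc finger factor, had 193, 245 and 240 CPM at 6 h, against 26.5, 29.8 and 44.8 CPM in controls (2.74 ± 0.37, adjusted p of 0.00053 in edgeR). Its relative Egr2 had 20.5, 25.8 and 24.0 CPM at 6 h and 2.65, 2.29 and 5.54 CPM in controls (2.75 ± 0.43). PT6H-1 lay slightly under the pair in both, at 88.5% and 90.4% of its difference. Myc, a factor of growth and ribosome production, had 152, 171 and 163 CPM at 6 h and 64.1, 62.8 and 63.2 CPM in controls (1.35 ± 0.11). Klf2 was higher with a smaller difference in PT6H-1, at 19.6, 63.5 and 59.3 CPM at 6 h against 7.45, 7.93 and 6.34 CPM in controls (2.71 ± 0.50). Nr4a1, a nuclear receptor, had 12.8 CPM in PT6H-1 and 43.2 and 51.3 CPM in the pair, against 4.71, 3.86 and 6.69 CPM in controls. Its call was lost without control replicate 1 or 2 or without PT6H-3 (adjusted p of 0.0530 to 0.0601 in edgeR). Fos itself had 21.4, 24.9 and 30.6 CPM at 6 h and 13.1, 12 and 14.5 CPM in controls (0.96 ± 0.26), a call that was lost without the same 3 libraries (adjusted p of 0.0628 to 0.0707 in edgeR). Ccn2, a matrix-associated growth regulator, was a member in which PT6H-1 went to the opposite side, with 30.1 CPM in PT6H-1 and 153 and 137 CPM in the pair, against 122, 134 and 110 CPM in controls, and it was not called in edgeR.

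Transcripts that follow ERK activity formed the list with the largest share of called members. Of 19 tested, 16 were called higher and 0 lower, with a median log2 change of 1.28, and PT6H-1 lay above the controls in all 16. Dusp5, a nuclear phosphatase of ERK, had 156, 243 and 247 CPM at 6 h, against 13.4, 16.9 and 12.8 CPM in controls (3.90 ± 0.36, adjusted p of 8.36e-05 in edgeR). Dusp6, its cytoplasmic counterpart, had 217, 234 and 217 CPM at 6 h and 79.6, 84.4 and 111 CPM in controls (1.28 ± 0.15). Hbegf, a ligand of the EGF receptor, had 812, 863 and 804 CPM at 6 h and 113, 123 and 95.3 CPM in controls (2.91 ± 0.15), so PT6H-1 lay within the pair. Ereg, another ligand of that receptor, was lower in PT6H-1 (27.4 CPM) than in the pair (82.1 and 66.6 CPM) and above the controls, which had 9.59, 7.78 and 6.69 CPM.

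The 150 bases before the start of Egr1 and Dusp5 are shown because both genes rose and both carry the CArG box, the site of serum response factor, in this window (in capitals; RefSeq, GRCr8, printed 5′ to 3′ on the strand of the gene). Their positions are chr18:26736928-26737077 (plus strand) for Egr1 and chr1:262543624-262543773 (plus strand) for Dusp5.
Egr1: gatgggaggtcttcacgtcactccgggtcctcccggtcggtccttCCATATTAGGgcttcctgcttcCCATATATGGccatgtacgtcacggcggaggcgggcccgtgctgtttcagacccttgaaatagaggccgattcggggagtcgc
Dusp5: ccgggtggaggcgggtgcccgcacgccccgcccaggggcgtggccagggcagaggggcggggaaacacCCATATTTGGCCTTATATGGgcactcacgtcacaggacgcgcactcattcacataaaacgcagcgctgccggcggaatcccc
The boxes begin 105 and 83 bases before the start in Egr1 and, side by side, 82 and 72 bases before it in Dusp5. In the 250 bases before the start, on either strand, the box was found in 22.7% of 22 immediate early genes and 13.3% of 15 ERK pathway genes with a promoter in the table, against 1.50% of all 27457 promoters and 1.24% of the 7433 promoters of tested genes. These genes were picked for display after the match was seen, and a match of letters is not a binding site.

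Some secreted growth and survival factors were higher too. Of 20 tested growth and neurotrophic factors 10 were called higher and 1 lower (median log2 change 0.91), and PT6H-1 was on the same side in all 11. Lif, a cytokine of the interleukin 6 family, had 868, 696 and 683 CPM at 6 h, against 53.2, 57.6 and 52.3 CPM in controls (3.78 ± 0.24, adjusted p of 1.34e-05 in edgeR). Pdgfb, a platelet-derived growth factor chain, had 27.1, 26.3 and 23.7 CPM at 6 h and 2.57, 3.21 and 2.90 CPM in controls (3.14 ± 0.23). In both PT6H-1 was the highest library. Gdf15, a stress-induced cytokine, had 397, 604 and 561 CPM at 6 h and 75.9, 65.3 and 58.4 CPM in controls (2.97 ± 0.38). Inhba, an activin subunit, was smaller in PT6H-1, with 4.28, 13.2 and 12.3 CPM at 6 h and 1.97, 1.71 and 1.67 CPM in controls (2.47 ± 0.50). Bdnf and Gdnf, trophic factors of dopaminergic and other neurons, had 6.85, 13.3 and 14.6 CPM and 1.63, 3.69 and 3.77 CPM at 6 h, against 3.17, 2.50 and 5.63 CPM and 0.770, 0.214 and 0.968 CPM in controls. Both calls were lost without control replicate 1 or 2 or without PT6H-2 or PT6H-3 (adjusted p of 0.0819 to 0.1 and 0.0562 to 0.0675 in edgeR).

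In the integrated stress response, in which phosphorylated eIF2α slows translation and ATF4 raises amino acid genes, 7 of 26 tested members were called higher and 1 lower (median 0.84), and without PT6H-1 10 were higher and 2 lower. PT6H-1 was on the side of the pair in all 8 called members and agreed in size in 6. The mean log2 CPM of the list was 6.48 in PT6H-1 and 6.69 and 6.71 in the pair, against 5.82, 5.78 and 5.77 in controls. Ppp1r15a, which reverses that phosphorylation, had 301, 281 and 293 CPM at 6 h, against 51.4, 52.6 and 47.3 CPM in controls (2.53 ± 0.28, adjusted p of 0.000226 in edgeR), and Atf3 had 99.9, 114 and 123 CPM at 6 h and 21.0, 19.6 and 26.1 CPM in controls (2.34 ± 0.41). PT6H-1 was near the pair in both. Asns, the asparagine synthetase, had 130 CPM in PT6H-1 and 496 and 467 CPM in the pair, against 82.3, 96.3 and 87.6 CPM in controls, so that PT6H-1 reached 22.9% of their difference. Its call was lost without any library of the 6 other than PT6H-1 (adjusted p of 0.0956 to 0.115 in edgeR). Atf5, a related factor outside the list that was chosen for its gap between the libraries, went to opposite sides, at 23.6 CPM in PT6H-1 and 219 and 200 CPM in the pair, against 41.6, 38.3 and 39.8 CPM in controls. It was not called in edgeR and was called higher by DESeq2, and by edgeR without PT6H-1 or without replicate 3 at 3 h.

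The ATF4 targets Chac1 and Trib3 ran the other way. Chac1, an enzyme that degrades glutathione, had 32.4 CPM in PT6H-1 and 6.77 and 8.57 CPM in the pair, against 3.00, 3.93 and 3.87 CPM in controls. Trib3, a pseudokinase, had 25.3, 7.18 and 8.91 CPM at 6 h, against 4.45, 3.999 and 2.64 CPM in controls. The Chac1 call was lost without any 1 of the controls or without PT6H-1 (adjusted p of 0.0709 to 0.0898 in edgeR), and the Trib3 call without control replicate 2 or 3 or without PT6H-1 (0.0548 to 0.0716). Both calls were also lost on log2(FPKM + 1) values in limma.

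Cytosolic tRNA synthetases, which load amino acids onto tRNAs, were nearer to control in PT6H-1. No member of 15 tested was called in edgeR, and 6 were higher at an unadjusted p below 0.05, a share not computed over all genes. DESeq2 called 4 higher, and 2074 genes higher in all. Without PT6H-1 edgeR called 5 higher, against 22.9% of all tested genes. Their mean log2 CPM was 7.80 in PT6H-1 and 8.44 and 8.40 in the pair, against 7.66, 7.65 and 7.55 in controls. At 3 h replicate 3 was likewise nearer to control, with 7.58, and replicates 1 and 2 had 8.89 and 8.79. Nars1 had 360 CPM in PT6H-1 and 790 and 733 CPM in the pair, against 328, 314 and 305 CPM in controls.

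Some antioxidant genes driven by NRF2 were higher in all 3 libraries, by less in PT6H-1. Of 23 tested members 7 were called higher and 0 lower (median 0.55), 10 higher without PT6H-1 and 4 with library-size scaling. PT6H-1 was on the same side as the pair in all 7 and agreed in size in 0 of them. Hmox1, heme oxygenase, had 1390, 4341 and 3976 CPM at 6 h and 779, 658 and 994 CPM in controls, a log2 change of 2 ± 0.55, and PT6H-1 reached 33.6% of the difference of the pair. The Hmox1 call was lost without control replicate 1 or 2 or without PT6H-2 or PT6H-3 (adjusted p of 0.0645 to 0.0729 in edgeR). Those of Srxn1, Sqstm1 and Fth1 were lost without any library of the 6 other than PT6H-1 (0.0566 to 0.147). Fth1 was called in 5 of 20 alternatives. Slc7a11, the cystine transporter of glutathione synthesis, had 819 CPM in PT6H-1, within the control values of 861, 668 and 1093 CPM, and 2111 and 1972 CPM in the pair, and was not called in edgeR.

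Chaperone genes did not move as 1 group. Of 14 tested cytosolic heat shock proteins 1 was called higher and 4 lower, and 0 and 4 with library-size scaling. Of 13 genes of endoplasmic reticulum folding stress 1 was higher and 2 lower, and 1 and 6 with library-size scaling. Xbp1, a factor of that stress response, had 195, 221 and 226 CPM at 6 h and 115, 121 and 117 CPM in controls (0.86 ± 0.10, adjusted p of 0.000231 in edgeR). The co-chaperones Dnajb4, with 17.9, 26.1 and 25.4 CPM at 6 h against 48.8, 43.1 and 41.0 CPM in controls (-0.94 ± 0.20), and Dnajc3, with 63.9, 59.4 and 57.7 CPM against 87.0, 86.0 and 91.4 CPM (-0.55 ± 0.11), were lower. PT6H-1 agreed in all 3 of these genes. The calls of Bag3 (higher), Chordc1, Hsp90aa1 and Hsp90b1 (lower) were each lost in 5 of the 6 fits that left out a library compared. Hspa1a, an inducible heat shock protein, went to opposite sides, with 20.6 CPM in PT6H-1 and 131 and 125 CPM in the pair, against 25.3, 27.6 and 29.6 CPM in controls. It was not called in edgeR and was called higher by DESeq2, and by edgeR without PT6H-1 or without replicate 3 at 3 h.

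Of 32 tested inflammatory genes of the NF-κB pathway 15 were called higher and 1 lower in edgeR (median 0.68), 12 and 4 without PT6H-1, and 11 and 2 with library-size scaling. All 3 libraries at 6 h were above the controls in 19 members and below them in 3. PT6H-1 agreed in size in 15 of the 16 called. The mean log2 CPM of the list was 7.72 in PT6H-1 and 7.23 and 7.25 in the pair, against 6.80, 6.68 and 6.84 in controls. Il6, a cytokine, had 19.8, 18.8 and 24.5 CPM at 6 h and 3.51, 1.36 and 3.43 CPM in controls (2.93 ± 0.46, adjusted p of 0.00122 in edgeR). Cxcl2, a chemokine, had 235, 180 and 174 CPM at 6 h and 44.5, 35.6 and 36.5 CPM in controls (2.34 ± 0.34). Ccl2, which draws in monocytes, had 3426, 2246 and 2186 CPM at 6 h and 1327, 1225 and 1319 CPM in controls (1.02 ± 0.24). Ptgs2, cyclooxygenase of prostaglandin synthesis, was lower in PT6H-1 than in the pair, with 245 CPM in PT6H-1 and 530 and 511 CPM in the pair, against 66.3, 60.2 and 66.8 CPM in controls (2.73 ± 0.43). Microglia, which also express such genes, were present in the cultures: 23 of 24 of their markers were tested, with a summed level of 3252, 2716 and 2647 CPM at 6 h and 3167, 3290 and 3862 CPM in controls. None of the 23, all of which had passed the filter on low counts, was at 0 in all libraries of a group. Their part in the result was not tested.

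Interferon-induced genes split the libraries more than they changed. Of 23 tested 2 were called higher, Oasl and Tap1, and 0 lower, with a median of -0.31 that was -0.92 without PT6H-1. The mean log2 CPM was 5.31 in PT6H-1 and 3.87 and 3.93 in the pair, against 4.56, 4.46 and 5.22 in controls, so that control replicate 3 was also high. PT6H-1 was on the same side as the pair in 3 of the 19 members in which the pair lay outside the controls. Tap1, a transporter of antigen peptides, was alike in the 3 libraries, with 132, 137 and 143 CPM at 6 h and 68.9, 72.3 and 84.0 CPM in controls (0.87 ± 0.14, adjusted p of 0.00134 in edgeR).

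Genes of the cholesterol pathway differed among the libraries at 6 h, and also among those at 3 h. Their mean log2 CPM was 7.51 in PT6H-1 and 6.77 and 6.84 in the pair, against 6.62, 6.71 and 6.77 in controls. At 3 h it was 7.54 in replicate 3 and 6.56 and 6.72 in replicates 1 and 2. Of 21 tested genes 3 were called higher and 0 lower. One of them was the methyl sterol oxidase Msmo1, with 1280, 1190 and 1169 CPM at 6 h and 399, 421 and 456 CPM in controls (1.51 ± 0.17, adjusted p of 0.000231 in edgeR), in which PT6H-1 was near the pair. In 8 members that were not called PT6H-1 lay on the opposite side, such as Cyp51, with 916 CPM in PT6H-1 and 383 and 369 CPM in the pair, against 509, 551 and 599 CPM in controls. Hmgcs1, an early enzyme of cholesterol synthesis, had 1969 CPM in PT6H-1 and 620 and 695 CPM in the pair, against 701, 666 and 774 CPM in controls.

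Proteases of the extracellular matrix and their inhibitors rose more widely than the matrix itself. Of 20 tested proteases and inhibitors 11 were called higher and 0 lower (median 1.03), whereas of 30 matrix genes 3 were higher and 0 lower (median 0.37). With library-size scaling 8 and 1 were higher and 0 lower, and this difference between lists was not tested. In all 11 PT6H-1 was above the controls, and it agreed in size in 7. Mmp3, stromelysin, had 42.7, 91.5 and 94.1 CPM at 6 h, against 11.04, 9.35 and 16.9 CPM in controls (2.61 ± 0.40, adjusted p of 0.00116 in edgeR). Serpinb2, an inhibitor of plasminogen activators, was at its highest in PT6H-1, with 11.5, 6.88 and 9.60 CPM at 6 h and 1.63, 1.36 and 1.76 CPM in controls (2.55 ± 0.48). Fibronectin, Fn1, had 3608 CPM in PT6H-1, within the control values of 3363, 4428 and 3218 CPM, and 7823 and 7337 CPM in the pair, and was not called in edgeR. The 150 bases before the start of Mmp13 (chr8:12782679-12782828) and Mmp3 (chr8:12925131-12925280), both on the plus strand of GRCr8, are shown with the site of AP-1, the factor formed by Fos and Jun proteins, in capitals (TGANTCA; RefSeq).
Mmp13: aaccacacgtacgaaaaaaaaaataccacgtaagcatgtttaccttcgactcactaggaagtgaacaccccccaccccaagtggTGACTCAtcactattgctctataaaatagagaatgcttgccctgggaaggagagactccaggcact
Mmp3: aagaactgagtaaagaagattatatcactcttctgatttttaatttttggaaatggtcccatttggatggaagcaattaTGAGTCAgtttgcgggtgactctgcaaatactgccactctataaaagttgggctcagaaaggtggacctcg
The sites begin 66 and 71 bases before the start. Within 250 bases this motif was found on either strand in 6.36% of all promoters and 4.68% of those of tested genes. It was found in 1 of 11 promoters of the largest rises, 1 of 15 of ERK pathway genes and 0 of 22 of immediate early genes. Its share among proteases was not computed. Mmp13 and Mmp3 too were picked for display after the match was seen.

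Many transcripts of BMP signalling and Id genes were lower in every library at 6 h, while the activity of the pathway itself was not measured. Of 21 tested members 12 were called lower, 1, Bmp2, was called higher and 8, Smad1 and Smad5 among them, were not called (median log2 change -1.43). The same counts of 12 lower and 1 higher were found with library-size scaling. PT6H-1 agreed in direction and size in all 13. Id3 had 116, 93.5 and 102 CPM at 6 h, against 506, 477 and 443 CPM in controls (-2.20 ± 0.17, adjusted p of 3.37e-05 in edgeR), and Id2 had 28.4, 23.5 and 21.5 CPM at 6 h and 143, 121 and 145 CPM in controls (-2.48 ± 0.19). Id1 (-1.74 ± 0.18) and Id4 (-1.45 ± 0.26) were lower too. Smad9, which carries the BMP signal, had 9.59, 9.34 and 8.46 CPM at 6 h and 69.6, 64.7 and 65.5 CPM in controls (-2.86 ± 0.21). The inhibitory Smad6 had 1.46, 3.18 and 2.97 CPM at 6 h and 18.6, 16.4 and 14.96 CPM in controls (-2.72 ± 0.30). Nog, the secreted BMP antagonist noggin, had 1.80, 1.54 and 2.51 CPM at 6 h and 13.4, 14.6 and 18.7 CPM in controls (-2.99 ± 0.54). In Id4, Smad6 and Atoh8 PT6H-1 was the lowest library. The level of the whole list was 3.96 log2 CPM in PT6H-1 and 4.49 and 4.52 in the pair, against 5.52, 5.51 and 5.54 in controls.

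In neighbouring pathways genes were called in both directions. Of 18 tested TGF-beta genes 3 were higher and 5 lower, 2 and 6 with library-size scaling, and PT6H-1 agreed in size in all 8. Smad3, which carries the TGF-beta signal, had 117, 169 and 158 CPM at 6 h and 61.9, 72.5 and 58.4 CPM in controls (1.20 ± 0.16, adjusted p of 0.000557 in edgeR), and the inhibitory Smad7 had 11.6, 12.8 and 10.3 CPM at 6 h and 30.2, 32.1 and 31.2 CPM in controls (-1.43 ± 0.16). Of 19 Notch genes 4 were higher and 3 lower, near the shares of all tested genes (18.7% and 11.8%), and 2 and 5 with library-size scaling. The ligand Jag1 had 102, 130 and 110 CPM at 6 h and 44.7, 44.0 and 59.8 CPM in controls (1.21 ± 0.22), while the target Hey1, which BMP also controls, had 16.3, 23.1 and 23.7 CPM at 6 h and 86.9, 82.8 and 91.8 CPM in controls (-2.05 ± 0.19). In all 7 called Notch genes PT6H-1 was on the side of the pair. Of 24 Wnt genes 8 were higher and 1 lower, and 4 and 3 with library-size scaling. Lef1, a transcription factor of the pathway, had 16.7, 24.0 and 21.8 CPM at 6 h and 3.94, 3.43 and 7.39 CPM in controls (2.08 ± 0.36), and Wnt5a had 66.5, 113 and 118 CPM at 6 h and 40.3, 40.6 and 42.9 CPM in controls (1.26 ± 0.24). PT6H-1 was above the controls in both, with 46.3% of the difference of the pair for Wnt5a. Over the 9 called Wnt genes it was on the same side in 7 and agreed in size in 5.

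Several factors that hold neural progenitors were lower in all 3 libraries. Of 15 tested 6 were called lower and 0 higher, and PT6H-1 was below the controls in all 6. The median log2 change of the list was -0.11, so the fall was in a part of it. DESeq2 called 6 lower and 2 higher, and in 2 members all libraries at 6 h were above the controls. Sox2 had 64.0, 70.7 and 69.7 CPM at 6 h, against 174, 171 and 175 CPM in controls (-1.35 ± 0.16, adjusted p of 0.000254 in edgeR). Sox21 had 14.2, 21.9 and 18.7 CPM at 6 h and 57.4, 59.1 and 76.3 CPM in controls (-1.81 ± 0.19), Nr2e1 18.7, 23.3 and 19.5 CPM against 45.8, 41.9 and 52.5 CPM (-1.19 ± 0.15), and Pax6 15.6, 18.0 and 13.5 CPM against 32.1, 29.6 and 26.5 CPM (-0.91 ± 0.19). Nes, the progenitor filament nestin, was not called in edgeR but was called higher by DESeq2, and by edgeR without PT6H-1 or without replicate 3 at 3 h, with 1799 CPM in PT6H-1, within the control values of 1646, 1860 and 1209 CPM, and 3791 and 3282 CPM in the pair.

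Some factors that start neuronal genes were lower as well. Of 13 tested proneural and neuronal transcription factors 4 were called lower and 0 higher (median -0.81), with PT6H-1 agreeing in all 4. Pou3f2, a neural POU factor, had 7.79, 8.52 and 8 CPM at 6 h and 22.8, 23.7 and 28.7 CPM in controls (-1.63 ± 0.28, adjusted p of 0.00181 in edgeR), and its relative Pou3f3 52.2, 52.9 and 56.8 CPM against 84.9, 89.3 and 109 CPM (-0.81 ± 0.14).

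Structural genes of neurons changed in few members. Of 24 tested neuronal cytoskeleton genes 2 were called higher and 0 lower with a median of -0.23, and 1 and 3 with library-size scaling with a median of -0.47. Tubb3, the neuronal β-tubulin, had 109, 188 and 183 CPM at 6 h, against 54.0, 53.2 and 40.5 CPM in controls (1.70 ± 0.42), with PT6H-1 above the controls at 60.4% of the difference of the pair. The Tubb3 call was lost without control replicate 3 (adjusted p of 0.0542 in edgeR). Map2 had 58.6, 90.9 and 88.6 CPM at 6 h and 110, 98.3 and 99.3 CPM in controls, and Dcx, of migrating young neurons, had 4.54 CPM in PT6H-1 and 0.308 and 0.114 CPM in the pair, against 14.7, 14.9 and 7.48 CPM in controls. Neither was called in edgeR. Map2 was called lower with library-size or count-to-FPKM depth scaling, without a filter on low counts and in limma on log2(FPKM + 1) and log2(FPKM + 0.1), and Dcx was called lower in limma on log2(FPKM + 0.1) and in edgeR without PT6H-1. Of 25 synapse and excitability genes 4 were higher and 2 lower, and 4 and 4 with library-size scaling. Syt4, a vesicle protein, had 42.1, 59.0 and 53.9 CPM at 6 h and 23.5, 25.1 and 24.1 CPM in controls (1.09 ± 0.21, adjusted p of 0.00363 in edgeR), and Dlg4, the postsynaptic scaffold PSD-95, had 288, 259 and 268 CPM at 6 h and 147, 148 and 157 CPM in controls (0.85 ± 0.10). PT6H-1 agreed in both. Of 10 tested genes of dopaminergic neurons 1 was called higher. This was Gch1, which makes the cofactor of tyrosine hydroxylase and is not specific to neurons, at 38.9, 23.9 and 30.4 CPM at 6 h and 14.6, 14.4 and 13.1 CPM in controls. Its call was lost without any 1 of the controls or PT6H-3 (adjusted p of 0.0588 to 0.0699 in edgeR) and with library-size scaling.

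Among repressors of neuronal fate and their cofactors 4 of 15 tested were higher and 2 lower, against 18.7% and 11.8% of all tested genes, and 2 and 3 with library-size scaling. Over the 6 called PT6H-1 was on the same side in 6 and agreed in size in 3. Rest, which silences neuronal genes in other cells, had 68.1, 78.2 and 72.7 CPM at 6 h, against 47.1, 45.3 and 43.5 CPM in controls (0.69 ± 0.11, adjusted p of 0.00124 in edgeR). Ehmt2, a histone H3 lysine methyltransferase, had 112, 104 and 107 CPM at 6 h and 186, 179 and 175 CPM in controls (-0.74 ± 0.09). PT6H-1 agreed in both. Ptbp1, a splicing repressor of neuronal exons, was not called in edgeR, with 589, 545 and 546 CPM at 6 h and 610, 635 and 568 CPM in controls.

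Astrocyte genes were measured as a check of the label and for change. Of 31 listed identity genes 22 were tested, with a summed level of 18187, 20428 and 22204 CPM at 6 h and 18138, 18021 and 22586 CPM in controls, and Slc1a3 was not analysed here. Of the 22, 2 were called higher and 3 lower, and 1 and 4 with library-size scaling. Cd44, an adhesion receptor, had 1874, 2095 and 1953 CPM at 6 h and 1026, 1039 and 1093 CPM in controls (0.91 ± 0.12, adjusted p of 0.000582 in edgeR), and Nfib, a factor of astrocyte differentiation, had 43.0, 48.1 and 46.5 CPM at 6 h and 71.8, 75.1 and 86.5 CPM in controls (-0.76 ± 0.13). PT6H-1 agreed in both. Gfap, the astrocyte filament, had 1558, 934 and 1127 CPM at 6 h and 1932, 1900 and 2708 CPM in controls (-0.85 ± 0.27), with PT6H-1 at 43.5% of the difference of the pair. The Gfap call was lost without any library of the 6 other than PT6H-1 (adjusted p of 0.0575 to 0.136 in edgeR). Of 29 reactive astrocyte genes 5 were higher and 2 lower, near or below the shares of all tested genes. PT6H-1 was on the same side in all 7 called and agreed in size in 5. Among those higher was Emp1, a membrane protein, with 506, 582 and 557 CPM at 6 h and 172, 181 and 129 CPM in controls (1.77 ± 0.18).

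Genes of cell division set PT6H-1 apart from the pair. Such a split was also present after 3 h. For mitosis genes PT6H-1 had a mean log2 CPM of 5.55, and the pair had 2.11 and 2.29. The controls had 6.28, 6.36 and 5.89. Among libraries exposed for 3 h, replicate 3 showed a level of 5.58, far above replicate 1 (2.60) and replicate 2 (2.46). The reason for either gap was not tested. Mki67 (ENSRNOG00000028137), a marker of cycling cells, had 159 CPM in PT6H-1 and 9.34 and 9.83 CPM in the pair, against 346, 375 and 301 CPM in controls. Top2a, which untangles chromosomes, had 142 CPM in PT6H-1 and 7.49 and 7.54 CPM in the pair, against 288, 300 and 196 CPM in controls, and Ccnb2, a mitotic cyclin, had 69.3 CPM in PT6H-1 and 3.18 and 3.54 CPM in the pair, against 98.2, 96.0 and 83.3 CPM in controls. All 3 libraries were below the controls in these 3 genes, but PT6H-1 had 21.3%, 16.9% and 8.64% of the log2 difference of the pair, and none was called in edgeR with all libraries. Mki67 and Top2a were called lower in limma on log2(FPKM + 1) and log2(FPKM + 0.1). Of 31 tested mitosis genes 29 were below the lowest control in all 3 libraries, against 27.5% of all tested genes. By edgeR 1 (Cenpe) was called lower, and 10 were lower at an unadjusted p below 0.05, a share not computed over all genes. DESeq2 called 8 lower, and 1496 genes lower in all. Without PT6H-1 all 31 were called lower by edgeR, with a median log2 change of -3.92 in place of -1.91. The Cenpe call was lost without any library of the 6 other than PT6H-1 (adjusted p of 0.0576 to 0.102 in edgeR). In these bulk samples fewer dividing cells and less RNA per cell cannot be told apart.

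The 150 bases before the start of Ccnb2 (chr8:79981659-79981808) and Top2a (chr10:84473094-84473243), both on the minus strand of GRCr8 and printed on the strand of the gene, hold motifs known from mitotic promoters, the CCAAT box and the TTTGAA core of the cell cycle homology region. They are in capitals, in either orientation (RefSeq).
Ccnb2: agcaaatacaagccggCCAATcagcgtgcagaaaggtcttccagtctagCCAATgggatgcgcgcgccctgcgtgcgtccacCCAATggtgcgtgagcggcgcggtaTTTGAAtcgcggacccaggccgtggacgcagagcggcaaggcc
Top2a: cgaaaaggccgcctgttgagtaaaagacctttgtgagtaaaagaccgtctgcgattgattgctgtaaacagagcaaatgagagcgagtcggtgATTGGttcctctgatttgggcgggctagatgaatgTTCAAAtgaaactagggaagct
In Ccnb2 the CCAAT boxes begin 134, 101 and 68 bases before the start and TTTGAA 43 bases before it, and in Top2a they begin 57 and 22 bases before it. Within 250 bases the CCAAT box was found in 76.9% and TTTGAA in 42.3% of 26 mitosis genes. The shares were 34.3% and 16.0% of all promoters and 34.8% and 10.1% of those of tested genes. Neither motif was particular to mitosis genes. TTTGAA was found in 41.2% of 17 BMP and Id genes and 8.70% of 23 DNA replication genes, and the CCAAT box in 35.3% and 65.2%. Ccnb2 and Top2a too were picked for display after the match was seen, and a match of letters is not a binding site.

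DNA replication genes followed with smaller differences. Of 29 tested 13 were called lower and 0 higher (median -1.29), and 27 without PT6H-1 (median -1.82). In all 13 PT6H-1 was below the controls, and it agreed in size in 4. Mcm2, a subunit of the replicative helicase, had 77.7, 65.3 and 69.4 CPM at 6 h, against 132, 146 and 112 CPM in controls (-0.88 ± 0.14, adjusted p of 0.00151 in edgeR), with PT6H-1 at 77.9% of the difference of the pair. Mcm6, another subunit, had 89.9, 43.3 and 47.0 CPM at 6 h and 170, 191 and 134 CPM in controls (-1.46 ± 0.40), and its call was lost without control replicate 1 or 2 or without PT6H-2 or PT6H-3 (adjusted p of 0.0576 to 0.0857 in edgeR).

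Regulators of the entry into the cycle were called in both directions. Of 21 tested genes of cyclin D and cell cycle inhibition 7 were higher and 2 lower, 5 and 4 with library-size scaling, and PT6H-1 was on the same side in all 9. Ccnd1, the cyclin of early G1, had 1038, 1390 and 1260 CPM at 6 h, against 650, 754 and 448 CPM in controls (0.99 ± 0.23, adjusted p of 0.00824 in edgeR). Cdkn2b, an inhibitor of its kinase, had 176, 146 and 135 CPM at 6 h and 52.0, 52.5 and 65.6 CPM in controls (1.43 ± 0.28). Cdkn1a, the inhibitor induced by p53, had 358 CPM in PT6H-1 and 707 and 709 CPM in the pair, against 270, 270 and 275 CPM in controls, or 29.0% of their difference, and its call was lost without any library of the 6 other than PT6H-1 (adjusted p of 0.0526 to 0.0658 in edgeR). Of 22 p53 targets 7 were higher and 3 lower, and 6 and 5 with library-size scaling. PT6H-1 was on the same side in all 10 called and agreed in size in 8. Those higher included the death receptor Tnfrsf10b, with 30.1, 34.0 and 37.6 CPM at 6 h and 12.9, 12.4 and 8.01 CPM in controls (1.61 ± 0.25), and the kinase Plk2, with 225, 328 and 284 CPM at 6 h and 92.2, 93.1 and 92.3 CPM in controls (1.59 ± 0.17).

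**Figure D3:**
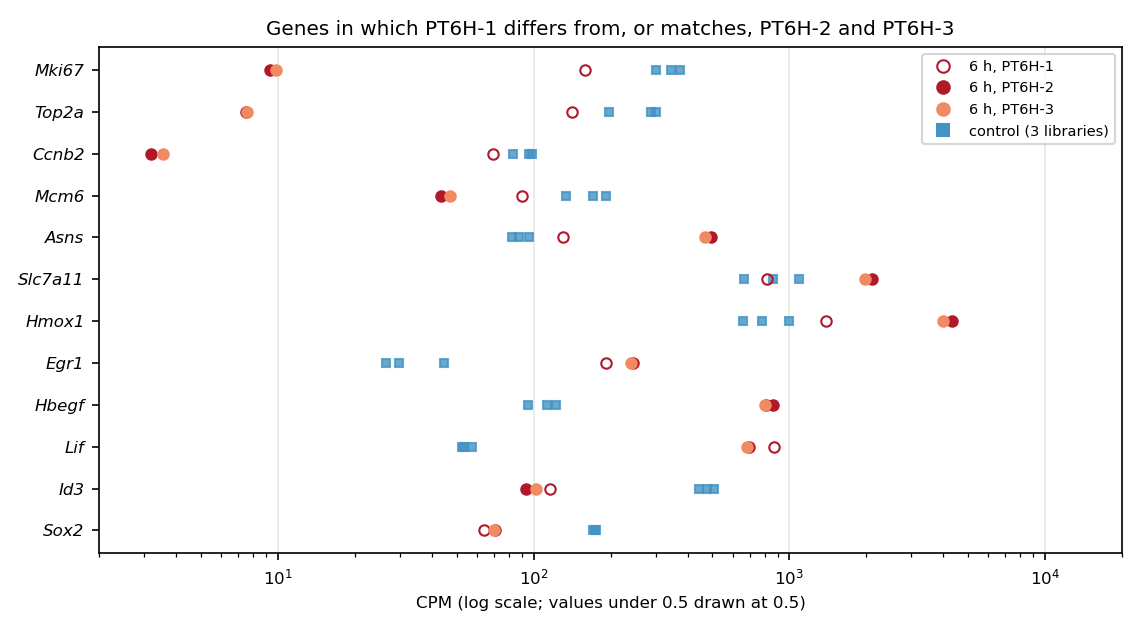
CPM on a log axis of 12 genes in each library at 6 h (circles, PT6H-1 open) and in each of the 3 controls (squares). For Mki67, Top2a, Ccnb2, Asns, Slc7a11 and Hmox1 the open circle lies nearer to the controls or among them, and for Egr1, Hbegf, Lif, Id3 and Sox2 it lies with the filled circles.

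Genes of growth and fuel use were called too. Of 18 tested genes of ribosome biogenesis 11 were called higher and 0 lower (median 0.67), 15 without PT6H-1, and PT6H-1 was on the same side in all 11 and agreed in size in 7. Nop56, a protein of the complex that methylates ribosomal RNA, had 175, 288 and 272 CPM at 6 h, against 127, 113 and 95.8 CPM in controls (1.13 ± 0.25, adjusted p of 0.00711 in edgeR), and Rrs1, a ribosome assembly factor, had 67.4, 81.2 and 67.7 CPM at 6 h and 34.6, 40.3 and 35.0 CPM in controls (0.97 ± 0.17). Of 17 glycolysis and glucose uptake genes 6 were higher and 1 lower, and 5 and 2 with library-size scaling. PT6H-1 was on the same side in all 7 called and agreed in size in 3. The glucose transporter Slc2a1 had 606, 867 and 846 CPM at 6 h and 338, 327 and 375 CPM in controls (1.16 ± 0.22), and the enolase Eno2 had 105, 172 and 181 CPM at 6 h and 80.7, 75.6 and 71.3 CPM in controls (1.01 ± 0.18), with PT6H-1 at 38.6% of the difference of the pair. Of 19 genes of fatty acid oxidation and fuel switching 2 were higher and 5 lower, Pdk4 and Angptl4 among those that fell. PT6H-1 was on the same side in all 7 called and agreed in size in 6. Klf15, a factor of fasting metabolism, had 10.7, 5.23 and 6.40 CPM at 6 h and 27.2, 29.4 and 30.6 CPM in controls (-1.96 ± 0.26).

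Clock genes rose in 7 of 18 tested members and fell in 0 (median 0.53), and PT6H-1 was on the same side in all 7. Ciart, a repressor of the clock, had 10.6, 12.5 and 16.8 CPM at 6 h, against 1.97, 2.50 and 2.73 CPM in controls (2.46 ± 0.36, adjusted p of 0.000834 in edgeR). Cry1 had 61.7, 69.99 and 74.3 CPM at 6 h and 25.5, 27.3 and 29.4 CPM in controls (1.33 ± 0.12), and Per2 had 27.7, 32.7 and 37.1 CPM at 6 h and 13.4, 14.6 and 16.3 CPM in controls (1.14 ± 0.13).

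Actin cytoskeleton and SRF target genes were called in 2 of 25 tested members, both higher (median -0.15), and in 1 higher and 1 lower with library-size scaling, and PT6H-1 agreed in both. Zyx, a focal adhesion protein, had 310, 344 and 341 CPM at 6 h, against 196, 201 and 164 CPM in controls (0.83 ± 0.15, adjusted p of 0.00303 in edgeR). Actb had 7968, 6607 and 6538 CPM at 6 h and 8612, 8801 and 6581 CPM in controls, and was not called in edgeR. Of 22 lysosome and autophagy genes 3 were higher and 1 lower, and 1 higher and 4 lower with library-size scaling. PT6H-1 was on the same side in all 4 called and agreed in size in 2.

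**Figure D4:**
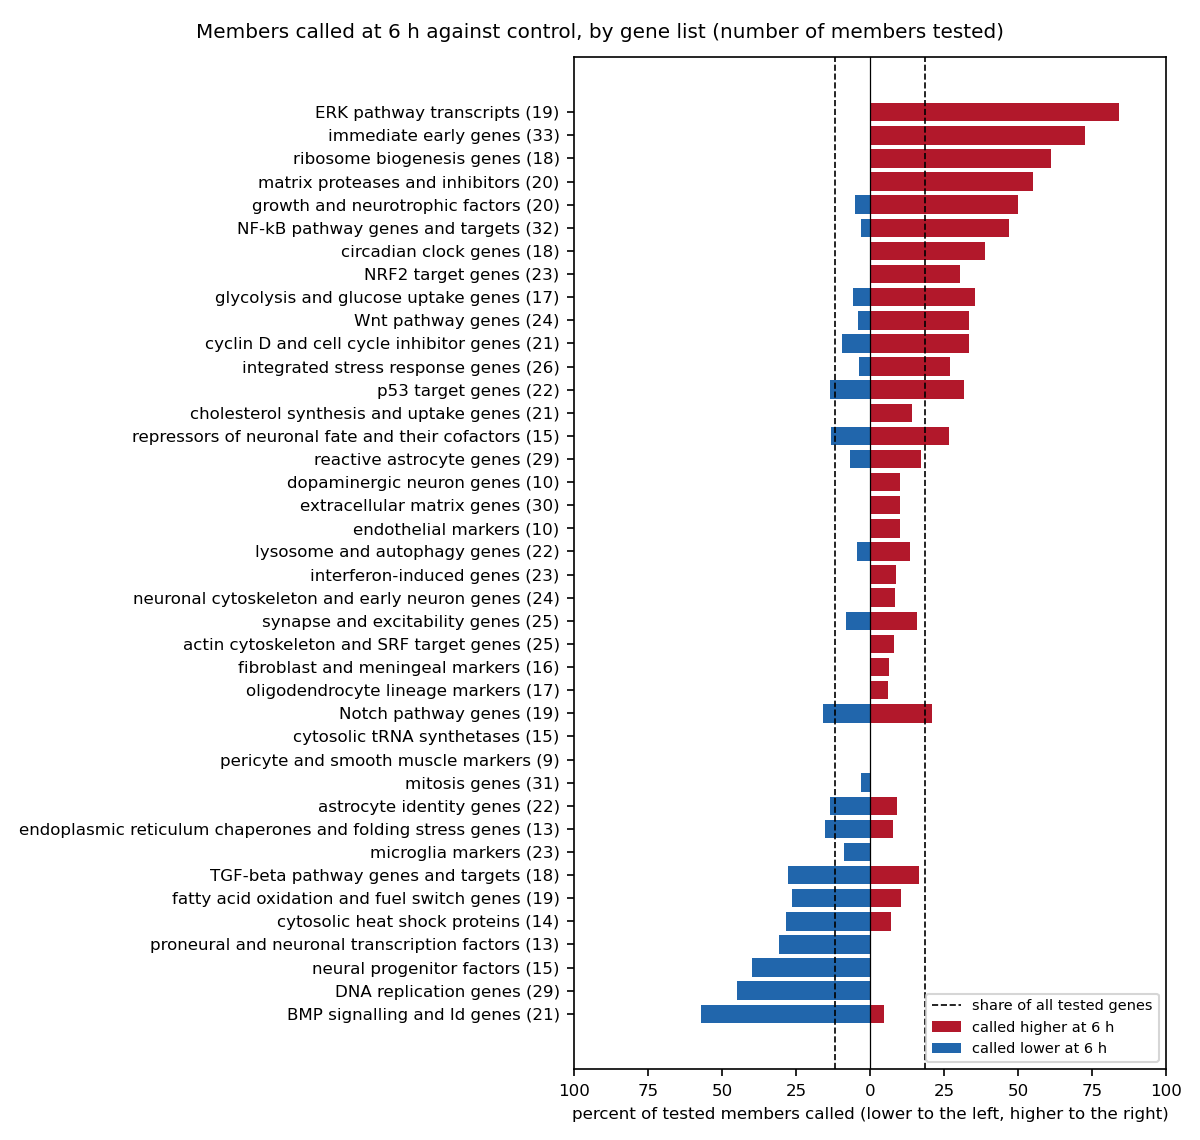
Percent of tested members of each gene list called higher (right) or lower (left) at 6 h against control in edgeR, with dashed lines at 18.7% and 11.8%, the shares of all tested genes. ERK, immediate early and ribosome biogenesis genes extend farthest to the right and BMP, DNA replication and progenitor genes farthest to the left.

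**Figure D5:**
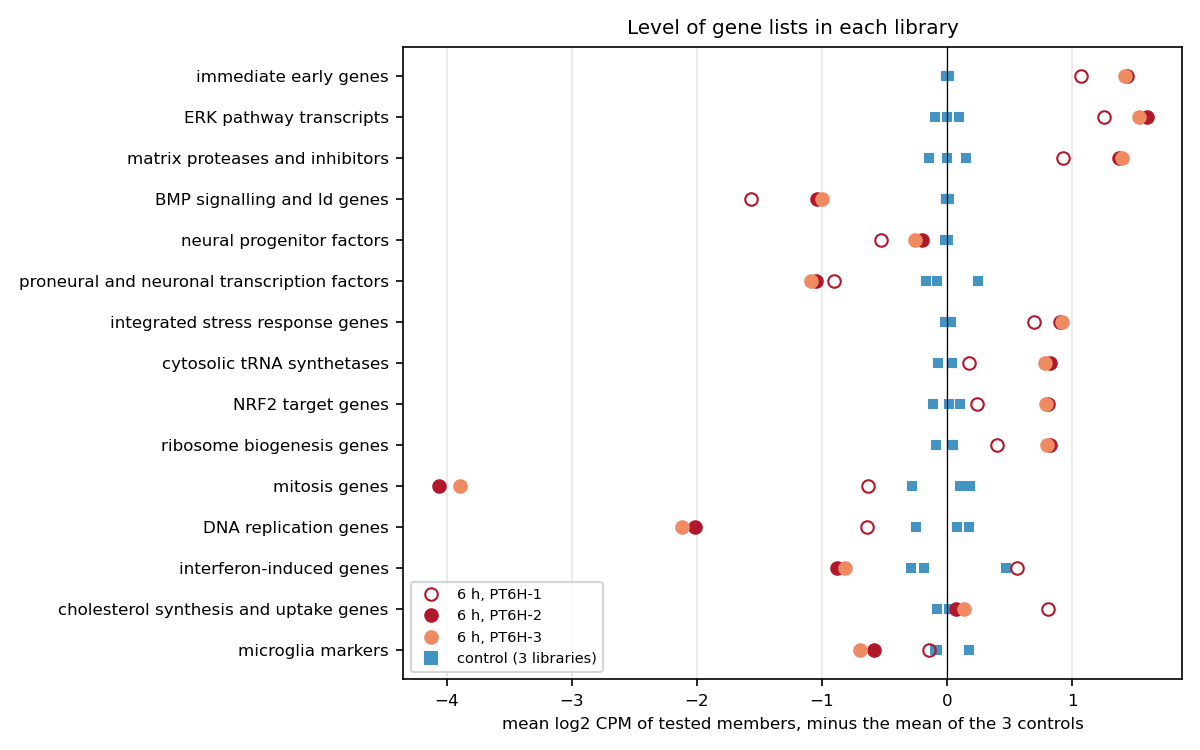
Mean log2 CPM of the tested members of 15 gene lists in each library, minus the mean of the 3 controls, for the libraries at 6 h (circles, PT6H-1 open) and the controls (squares). For immediate early and ERK genes PT6H-1 lies above the controls and under the pair. It lies under the pair and farther from the controls for BMP genes, and near the controls for mitosis genes and tRNA synthetases.

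Markers of other cell types were called in few members. Of microglia markers 0 of 23 were higher and 2 lower, Cx3cr1 (5.82, 3.18 and 3.66 CPM at 6 h, against 14.6, 18.4 and 25.3 CPM in controls) and Tmem119 (26.0, 15.9 and 20.6 CPM, against 36.4, 42.3 and 50.7 CPM). In both PT6H-1 was below the controls. The mean log2 CPM of the list was 5.97 in PT6H-1 and 5.53 and 5.42 in the pair, against 6.02, 6.04 and 6.30 in controls. The Cx3cr1 call was lost without any library of the 6 other than PT6H-1 (adjusted p of 0.0695 to 0.142 in edgeR), and the Tmem119 call without PT6H-2 or PT6H-3 (0.0530 to 0.0643). Of 17 oligodendrocyte lineage markers 1 was higher and 0 lower, of 16 fibroblast and meningeal markers 1 and 0, of 10 endothelial markers 1 and 0, and of 7 ependymal markers 0 and 2. Of 9 pericyte and smooth muscle markers none was called in edgeR, 0 were higher and 1 lower at an unadjusted p below 0.05, and 0 and 1 were called by DESeq2. The summed levels of these lists at 6 h and in controls were 873 to 1177 and 940 to 978 CPM for oligodendrocyte, 1210 to 1522 and 1409 to 1762 CPM for fibroblast, 99.7 to 175 and 216 to 256 CPM for endothelial, 45.6 to 67.5 and 65.0 to 69.8 CPM for ependymal, and 851 to 968 and 875 to 1629 CPM for pericyte markers. The tested markers were 17 of 22 listed for oligodendrocyte, 16 of 21 for fibroblast, 10 of 16 for endothelial, 7 of 19 for ependymal and 9 of 14 for pericyte lists. None of those tested was at 0 in all libraries of a group. They had first passed the filter on low counts, so this says little about the presence of these cells.

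Fewer genes were called between 6 h and 3 h than against control. In the same edgeR fit 384 genes (4.05%) were called between 6 h and 3 h, 221 (2.33%) higher and 163 (1.72%) lower at 6 h, and 394 without PT6H-1. The count was 22 without PT6H-2, 34 without PT6H-3, 49 and 33 without replicates 1 and 2 at 3 h, 753 without replicate 3 at 3 h, and 189, 192 and 223 without control replicates 1, 2 and 3, so it rests on single libraries. Arc, an immediate early gene of synapses, averaged 6.13 ± 1.07 CPM at 6 h and 41.7 ± 17.1 CPM at 3 h (SD, n = 3 each), a log2 difference of -2.76 ± 0.31 (adjusted p of 0.00624 in edgeR). Smad9 averaged 9.13 ± 0.594 CPM at 6 h and 30.1 ± 4.35 CPM at 3 h (-1.72 ± 0.20). These 2 calls between 6 h and 3 h held when each of the 9 libraries of 6 h, 3 h and control was left out. Against control PT6H-1 agreed in direction and size in both genes.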

How the data were processed

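The assay was RNA-seq of total RNA (TRIzol extraction, NEBNext Ultra library kit, per the labels' protocols). For every gene and library the authors deposited an estimated count (expected count) together with an FPKM value, as named in the file headers. StringTie 2.2.1 stands in the submitters' processing notes; for the aligner, the genome build and the annotation the entry is not given in the sources used here. The plan had assumed whole counts, but 9.49% of count values, in 1343 genes, were fractional, and all were rounded before testing. With 9721 genes the table covers part of a rat genome, and adjusted p-values apply to that part alone. No symbol was given for 60 genes. Where a symbol had several lines (58 symbols), the line with the highest mean count was taken. Some genes that the naming rule selects are not reported here. How reads of near-identical copies, overlapping genes or antisense genes were counted was not checked.

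Tests ran in R 4.3.3. The filterByExpr function of edgeR 4.0.16 took out 230 genes, and the remaining 9491 went, after TMM scaling, into a single robust quasi-likelihood fit of the 12 libraries by group. The prior count was 0.125 for log2 changes, which are given with their SE, and 0.5 for list levels. Alternatives were scaling by RLE, library size or count-to-FPKM depth, other low-count filters, a block for replicate number, a fit limited to the groups compared, a non-robust fit, DESeq2 1.42.0, limma 3.58.1 on log2(FPKM + 1) or log2(FPKM + 0.1), and leaving out each replicate.

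The members and gene lists (41 lists, 986 symbols, 786 of them in the table) were chosen with earlier results of these data known. Lists share members, such as Btg2, Hey1, Sox9 and Smad7, and are described by counts and medians with no test. The text names, first, the 15 called genes with the largest rise and the 15 with the largest fall that had at least 2 CPM on average in the higher group and no overlap. It further names up to 4 called and 2 uncalled members of each list, a fixed panel, and the 10 genes on each side, at 5 CPM or more on average, in which PT6H-1 was farthest above or below the other libraries at 6 h. Promoter sequences are from a RefSeq table (GRCr8), matched by symbol for 7433 of 9327 tested symbols and searched on both strands over 250 bases before the start.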

Additional observations from a re-analysis of the deposited data

Results flagged for a closer look

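For 18 genes named for their change against control, the change at 6 h differed from that at 3 h in edgeR's test of the difference (6 h minus 3 h, adjusted p below 0.05). The log2 differences were -3.45 in Ranbp3l, -2.52 in Lmod1, -2.48 in Bdkrb1 and -1.83 in Trpm6, all among the 15 largest falls against control. Among immediate early genes they were -3.26 in Fosb, -2.93 in Nr4a1, -2.76 in Arc, -1.68 in Egr2 and -0.65 in Srf. Smad9 differed by -1.72, Id4 by -1.31, Vegfa by -0.71, Nr2e1 by -0.63, Sox9 by -0.61, Nfib by -0.56 and Ehmt2 by -0.40. Of the clock genes, Bhlhe40 was lower at 6 h than at 3 h by -1.56 and Cry1 higher by 0.60. The calls of Arc and Smad9 held in each of 9 fits that left out 1 library of 6 h, 3 h or control, and the other 16 were lost in at least 1 of them, with no change of sign.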

How the results depend on the processing

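The number of genes changed at 6 h was 2605 to 3731 under the alternatives that kept all libraries of 6 h and control, and 1705 to 3872 when 1 library was left out. Genes called higher were 1141 with library-size scaling and 1131 to 2211 with 1 library left out. Genes called lower were 1799 with library sizes, 1712 with the count-to-FPKM depth, 2032 on log2(FPKM + 1) and 1969 on log2(FPKM + 0.1) in limma, and 548 to 1694 with 1 library left out. Between 6 h and 3 h the count of 384 was 14 when only these groups were fitted, 830 in DESeq2 and 22 to 753 with 1 library left out. The cause of these moves was not tested. PT6H-1 lay on the side of the pair in 5275 to 5474 genes under the other scalings, and with a size threshold of 75% it agreed in size in 1396 called genes in place of 2281.

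No pairing by replicate number was seen: the correlation of deviations between the same-numbered libraries of 6 h and control was -0.0139, -0.0344 and 0.0128. With 3 libraries a group, and PT6H-1 apart from the pair, this check cannot decide whether cultures were shared. Blocking on the replicate number gave 2605 calls at 6 h against control and 159 between 6 h and 3 h.

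Of 168 named genes called at 6 h, 103 were called in all 20 alternatives that gave a value and 106 in all 6 fits that left out a library compared, and none changed sign. At CPM values near 0 the counts are too few to size a fold.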

Other observations

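Genes were ranked by the gap in log2 CPM between PT6H-1 and the nearer of PT6H-2 and PT6H-3, and the 10 on each side are given as values with no test. Those with PT6H-1 above the pair were Tex52, Cenpf, Birc5, Depdc1, Kif22, Polq, Ccnb2, Pbk, Ttk and Top2a. Cenpf, a kinetochore protein, had 53.7 CPM in PT6H-1 and 1.85 and 1.83 CPM in the pair, against 109, 105 and 86.2 CPM in controls. Birc5, survivin of the mitotic spindle, had 15.7, 0.616 and 0.571 CPM at 6 h and 23.6, 22.9 and 17.2 CPM in controls.

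Those with PT6H-1 below the pair were Apold1, Atf5, Atp6v0d2, Fbln5, Grem1, Hspa1a, Fgf7, Mmp13, Ackr3 and Adm. Apold1, an early response gene of endothelium, had 1.80 CPM in PT6H-1, within the control values of 3.42, 2.71 and 1.67 CPM, and 64.1 and 72.0 CPM in the pair. Its call as higher was lost without any library of the 6 other than PT6H-1 (adjusted p of 0.0673 to 0.0855 in edgeR). Fbln5, an elastic fibre protein, had 11.8, 77.1 and 76.1 CPM at 6 h and 18.5, 16.9 and 10.1 CPM in controls. Adm, the peptide adrenomedullin, had 20.6, 115 and 99.9 CPM at 6 h and 34.6, 33.7 and 25.8 CPM in controls. In Fgf7 and Ackr3 the control values were near those of PT6H-2 and PT6H-3 (Fgf7 3.51, 20.01 and 21.8 CPM at 6 h and 18.3, 14.4 and 14.8 CPM in controls, Ackr3 2.23, 12 and 11.9 CPM at 6 h and 13.1, 12.4 and 9.42 CPM in controls).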
